A study of Mus musculus with 5480 samples.

Results

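The genes described here were 7 secreted ligands of the Wnt pathway, 4 Wnt proteins (Wnt2, Wnt4, Wnt5a and Wnt11) and 3 R-spondins (Rspo1, Rspo2 and Rspo3). They were chosen by name and made up 7 of the 18072 genes in the count table. Their levels had been measured in 5480 single mesenchymal cells, the fibroblasts, smooth muscle cells and pericytes of the supporting tissue, sorted from the distal lung of 10 mice. Each of 5 groups held 1 female and 1 male. In normal air there were fetuses at E18.5 (embryonic day 18.5) and pups at P1, P7 and P21 (the number is the day after birth), and the fifth group had been kept in hyperoxia, an excess of oxygen, and taken at P7. The strain, the oxygen level and the length of exposure were not given in the sources used here, and no group carries a transgene or deletion by its labels. The submitters had assigned every cell to 1 of 16 subtypes, whose names are used here as given.

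Wnt proteins are lipid-modified signals that act mostly on neighbouring cells through Frizzled receptors. Wnt2 is known as a canonical Wnt, which stabilises β-catenin, whereas Wnt5a and Wnt11 are best known for β-catenin-independent signalling that orients and moves cells. R-spondins do not activate Frizzled receptors themselves. They bind Lgr receptors and the ubiquitin ligases Znrf3 and Rnf43, and so keep Frizzled receptors at the cell surface and raise the response to Wnt proteins.

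Reads were summed over the cells of a mouse in a subtype and given as CPM, the count scaled by all reads of those cells in the usual unit, for at least 10 cells. The subtypes had been defined by clustering these same cells, so levels and their order across subtypes are descriptions, with no test. For comparisons of age and air, early and later subtypes of 1 lineage were joined into a class, because the submitters gave them separate names by age. Each mouse held 311 to 633 cells and 294154721 to 671766116 reads. Of the marker genes fixed for each class, 6 of 6 pericyte markers, 5 of 6 adventitial, 4 of 6 airway smooth muscle, 3 of 6 vascular smooth muscle and 3 of 5 alveolar fibroblast markers were highest in a subtype of that class. Of 5 myofibroblast markers, 0 were: Tgfbi and Aspn were highest in early airway smooth muscle, so the name myofibroblast is the submitters' alone here. A code in each cell's title is read here as the run, and a number in it as the plate. Nearly all cells of the hyperoxia mice had runs of their own. The exception was 9 of 551 cells of the male, from a CD31 sort, which shared a run with cells of normal-air mice. The median number of genes detected per cell was 4268 and 5545 in the hyperoxia mice against 2988 and 2963 in the P7 mice in normal air. Run and hyperoxia cannot be told apart. In normal air, nearly all cells of the males came from 1 run. Those of the females came from other runs, shared by E18.5 and P1 but different at P7 and at P21. In females, the steps from P1 to P7 and from P7 to P21 therefore coincide with a change of run, and sex coincides with run.

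Wnt2 was highest in fibroblasts. Its mean level was 509 CPM ± 123 (SD, n = 8 mice) in early alveolar fibroblasts and 494 CPM ± 96.1 (SD, n = 2) in the fibroblast precursors of E18.5. Alveolar fibroblasts of P21 held 314 CPM ± 93.2 (SD, n = 2), the male hyperoxic fibroblasts of 1 mouse 308 CPM, and proliferating fibroblasts 249 CPM ± 92.4 (SD, n = 5). These 5 subtypes stood apart from all others. The next in order, the myofibroblast and smooth muscle precursors, held 23.5 CPM ± 5.54 (SD, n = 2), and the ranges of the fifth and the sixth subtype did not overlap. Within the first 5, early alveolar fibroblasts and fibroblast precursors differed by less than the spread between mice.

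The share of cells with a Wnt2 read followed the same split. Cells were thinned to 100000 reads each, and the 168 cells with fewer reads were dropped. Wnt2 was then seen in 1061 of 1533 early alveolar fibroblasts (69.2%, Wilson 95% interval 66.9 to 71.5) and in 74.7% of 755 fibroblast precursors (71.5 to 77.7). It was seen in 0 of 192 vascular smooth muscle cells, which allows up to 1.56%, and in 0 of 112 airway smooth muscle cells, which allows up to 2.68%. Such limits and intervals cover counting error only. In each of the 10 mice, fibroblast precursors or alveolar fibroblasts held most of the gene's reads. Fibroblast precursors held 92.8% and 90.0% at E18.5 in the female and the male. At P1 the alveolar class held 94.5% and 99.4%, and at P21 it held 93.9% and 97.4%. In the male hyperoxia mouse, early alveolar fibroblasts held 75.7% and male hyperoxic fibroblasts 16.6%.

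**Figure D1:**
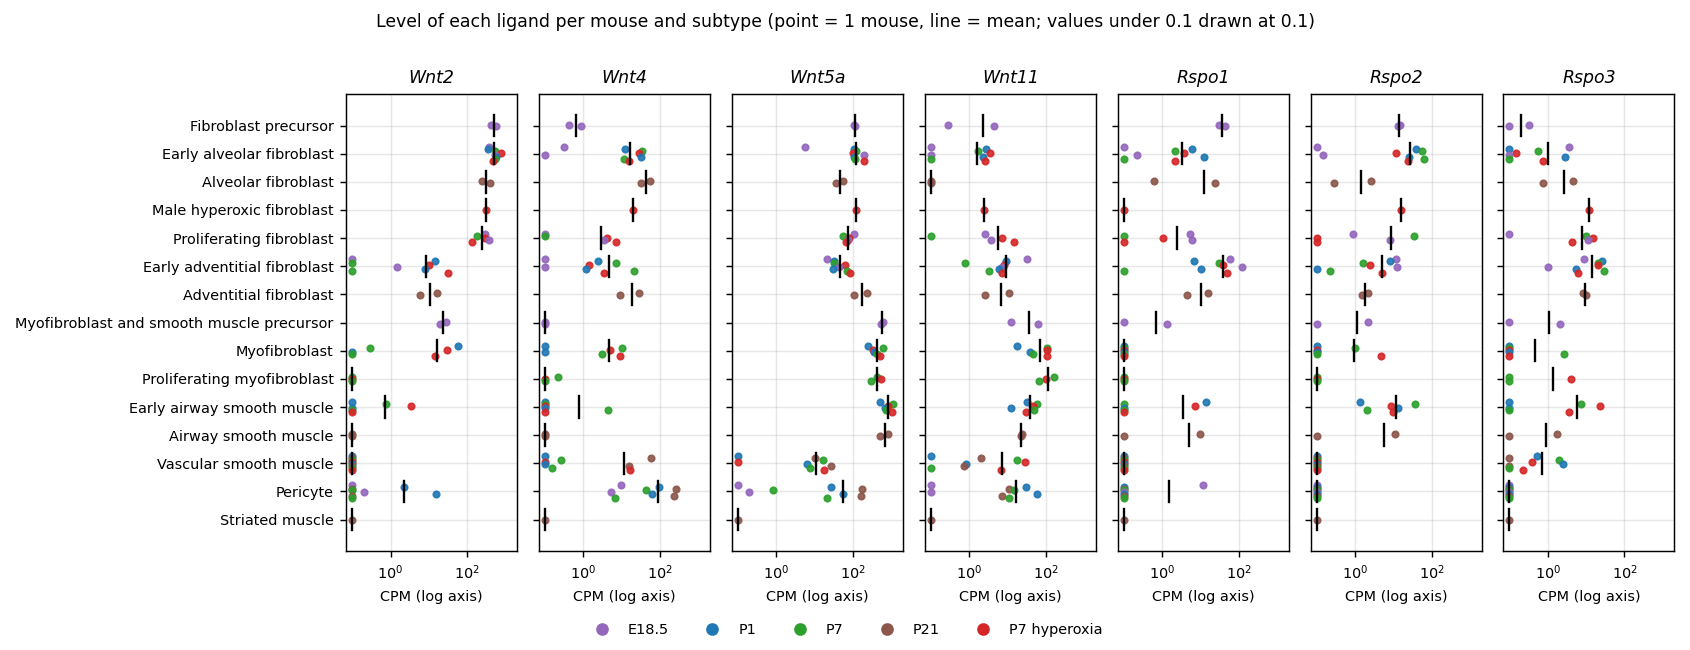
Level of each ligand (CPM, log axis) in every subtype with at least 10 cells of a mouse. Each point is 1 mouse, coloured by group, and the line is the mean over mice; values under 0.1 are drawn at 0.1, and panels should be read within a gene, since CPM is not corrected for gene length. Wnt2 points lie at 129.6 CPM or above in 5 fibroblast subtypes and at 56.7 CPM or below elsewhere, whereas Wnt5a is highest in airway smooth muscle and myofibroblasts.

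Wnt5a was highest in early airway smooth muscle (805 CPM ± 219, SD, n = 6), airway smooth muscle of P21 (662 CPM ± 203, SD, n = 2) and the myofibroblast and smooth muscle precursors of E18.5 (572 CPM ± 51.3, SD, n = 2). Proliferating myofibroblasts held 418 CPM ± 116 (SD, n = 3) and myofibroblasts 412 CPM ± 130 (SD, n = 6). The ranges of these last 2 overlapped, and the lowest myofibroblast value, 247 CPM, was above the highest of the next subtype, adventitial fibroblasts of P21, at 234 CPM. Wnt5a was also the most widely detected of the 7 genes. It was seen in 253 of 282 early airway smooth muscle cells (89.7%, Wilson 95% interval 85.6 to 92.7), and still in 826 of 1533 early alveolar fibroblasts (53.9%, 51.4 to 56.4). In vascular smooth muscle it was seen in 14 of 192 cells (7.29%, 4.39 to 11.9).

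Wnt11 was highest in proliferating myofibroblasts (111 CPM ± 50.0, SD, n = 3) and myofibroblasts (70.5 CPM ± 41.0, SD, n = 6), followed by early airway smooth muscle (37.8 CPM ± 16.2, SD, n = 6). Each of these overlapped its neighbour in the order. Across the 64 libraries of 1 mouse and 1 subtype, Pearson's r between Wnt11 and Wnt5a on log2(CPM + 1) was 0.57, the highest of the 21 pairs of members. The next was 0.48, between Wnt2 and Rspo2, and the lowest was -0.38, between Wnt2 and Wnt11. The libraries share mice and runs, so these values are descriptions. In single cells, 472 of the 614 cells with a Wnt11 read also held a Wnt5a read (76.9%, where 53.8% of all 5312 thinned cells did), and 65 also held a Wnt2 read (10.6%, where 37.6% of all cells did). Wnt5a itself was not set apart from Wnt2 in this way: of 1995 cells with a Wnt2 read, 1165 held a Wnt5a read (58.4%), and r between both genes was 0.14. These shares pool all subtypes. Within early alveolar fibroblasts, 62.9% of the cells with a Wnt11 read held a Wnt2 read, against 69.2% of all. Within early adventitial fibroblasts it was 15.9% against 8.56%. Within myofibroblasts, 88.2% of the cells with a Wnt11 read held a Wnt5a read, against 78.4% of all.

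The 2 Wnt genes with the lowest correlation are shown by the 250 bases before their start, from RefSeq on build GRCm38.p6. The build named in the submitters' processing notes is a human one, so the reads themselves are not placed on these coordinates. The sequences were searched on both strands for CTTTGAT, a form of the site bound by the TCF and LEF factors that carry the β-catenin response, and matches are in capitals. Both the motif and the examples were chosen after the sequences had been seen.
Wnt2, chr6:18030446-18030695, minus strand: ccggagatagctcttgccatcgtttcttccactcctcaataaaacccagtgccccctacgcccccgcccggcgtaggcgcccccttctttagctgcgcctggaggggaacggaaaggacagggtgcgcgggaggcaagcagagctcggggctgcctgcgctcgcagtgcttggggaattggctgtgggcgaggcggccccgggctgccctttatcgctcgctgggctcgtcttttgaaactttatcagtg
Wnt11, chr7:98834862-98835111, plus strand: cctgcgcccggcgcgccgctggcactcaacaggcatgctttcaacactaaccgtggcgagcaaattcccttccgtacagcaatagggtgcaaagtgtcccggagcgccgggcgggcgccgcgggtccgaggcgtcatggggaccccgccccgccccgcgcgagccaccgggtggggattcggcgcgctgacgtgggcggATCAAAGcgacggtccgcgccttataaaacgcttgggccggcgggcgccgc
The Wnt11 stretch held 1 match, written as its reverse complement ATCAAAG and starting at position -51 from the start, and the Wnt2 stretch held 0. Of 32851 RefSeq promoters of the same length, 1053 (3.21%) held a match, and so did 1 of the 5 promoters listed for 4 members (Wnt2, Wnt4, Wnt11, which has 2, and Rspo1). Wnt5a, Rspo2 and Rspo3 had no entry. A match is a description of the letters and not a binding site.

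Wnt4 was highest in pericytes, the cells that wrap capillaries. Its mean there was 89.8 CPM ± 103 (SD, n = 8), with a range from 5.15 to 262 CPM that is described by age below. It came next in alveolar fibroblasts of P21 (42.2 CPM ± 15.7, SD, n = 2), and the ranges of both overlapped. Wnt4 was seen in 85 of 275 pericytes (30.9%, Wilson 95% interval 25.7 to 36.6) and in 46 of 243 alveolar fibroblasts (18.9%, 14.5 to 24.3), against 7 of 755 fibroblast precursors (0.927%, 0.450 to 1.90).

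The R-spondins were seen in few cells. Rspo1 was highest in early adventitial fibroblasts, which surround airways and larger vessels (39.7 CPM ± 39.5, SD, n = 8), and in fibroblast precursors (37.3 CPM ± 10.3, SD, n = 2). The first SD spans ages and hyperoxia, whereas the precursors are of E18.5 only. Among the E18.5 mice, early adventitial fibroblasts held 58.7 and 122 CPM and fibroblast precursors 30.0 and 44.6 CPM, with no overlap. By cells, Rspo1 was seen in 131 of 755 fibroblast precursors (17.4%, Wilson 95% interval 14.8 to 20.2) and in 47 of 584 early adventitial fibroblasts (8.05%, 6.11 to 10.5). Rspo2 was highest in early alveolar fibroblasts (27.4 CPM ± 23.5, SD, n = 8), where 236 of 1533 cells held a read (15.4%, 13.7 to 17.3). In pericytes it was seen in 0 of 275 cells, which allows a share of up to 1.09%. Rspo3 was highest in early adventitial fibroblasts (14.5 CPM ± 10.4, SD, n = 8), where 52 of 584 cells held a read (8.90%, 6.85 to 11.5). Rspo3 was the least detected member, in 113 of 5312 thinned cells (2.13%).

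Per kilobase of exon, which allows genes to be compared, the members spanned a wide range in their highest subtype. Wnt2 reached 226 CPM per kb ± 54.5 (SD, n = 8) and Wnt5a 103 CPM per kb ± 28.0 (SD, n = 6). Wnt11 reached 26.8 CPM per kb ± 12.1 (SD, n = 3), Wnt4 21.4 CPM per kb ± 24.6 (SD, n = 8) and Rspo1 20.5 CPM per kb ± 20.4 (SD, n = 8), which overlapped within their SDs. Rspo2 held 5.36 CPM per kb ± 4.59 (SD, n = 8) and Rspo3 4.68 CPM per kb ± 3.36 (SD, n = 8). Among the 5312 thinned cells, 1276 held a read of no member (24.0%), 2007 of 1 member (37.8%), 1572 of 2 members (29.6%) and 457 of 3 or more.

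**Figure D2:**
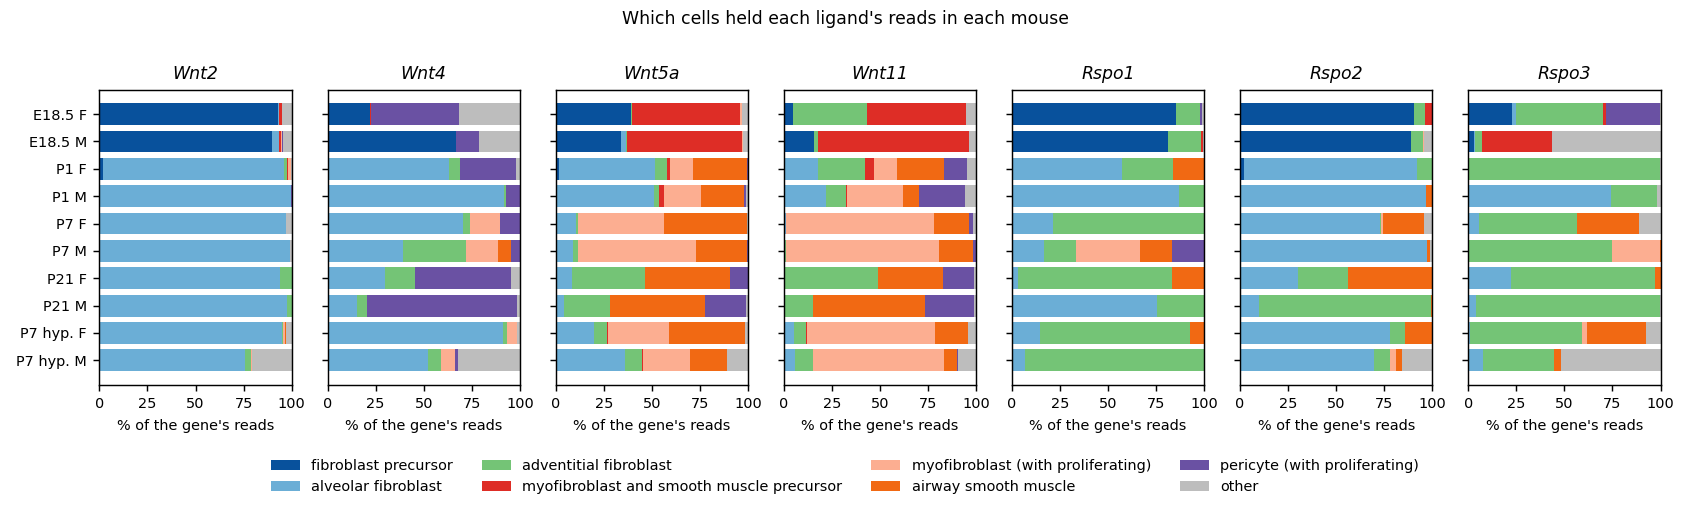
Share of each ligand's reads (percent, from 0 to 100) held by 8 kinds of cell, 1 bar per mouse (F female, M male). Wnt2 bars are blue, from fibroblast precursors and alveolar fibroblasts, in 10 of 10 mice; Rspo1 in the male P7 mouse is drawn from only 6 reads.

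Age was compared first. Within 6 classes, members were compared between successive ages with edgeR's quasi-likelihood test on the summed counts, adjusted over all genes of a comparison by Benjamini-Hochberg, with a threshold of 0.05. Of 133 member and comparison pairs, hyperoxia included, 108 had enough reads to be tested and 25 did not. By this test 2 of the 108 passed and 19 had an unadjusted p under 0.05. Over all genes, edgeR called from 0% to 6.16% in a comparison, and both member calls fell in the comparison with 6.16%. An unadjusted p under 0.05 was seen for 319 to 3287 genes a comparison, among 11894 to 15670 tested. DESeq2, run on the same counts, called 19, and it called 5.06% of all gene and comparison pairs. With 2 mice a group the fits had 2 to 4 residual degrees of freedom, which limits what could be called. Where 2 ages are said not to overlap, this describes 2 mice of each, and its share over all genes was not worked out for age. For hyperoxia, 41.8% of all gene and class pairs did not overlap.

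In alveolar fibroblasts, Wnt4 and Rspo2 were higher at P1 than at E18.5. Wnt4 held 0.320 and 0.0737 CPM in the female and male of E18.5, and 12.0 and 32.4 CPM at P1. Rspo2 held 0 and 0.147 CPM at E18.5, and 40.3 and 25.4 CPM at P1. In both genes the 2 ages did not overlap. The log2 difference was 7.27 (SE 1.47) for Wnt4 and 8.03 (SE 1.76) for Rspo2, with adjusted p of 0.0346 and 0.0398 (edgeR). The E18.5 side of each rests on 2 reads. In thinned cells, a read of either gene was seen in 0 of 8 and 0 of 21 cells at E18.5, which allows up to 37.5% and 14.29%. At P1 it was seen in 7.02% and 11.9% of cells for Wnt4, which is under both limits. For Rspo2 it was seen in 14.6% and 14.7%, under the limit of the female and just above that of the male. With so few cells at E18.5, these shares do not decide whether the share of cells differed. The cells were also few and shallow: the E18.5 class had 14 and 24 cells, with a median of 1042 and 1232 genes per cell, against 362 and 393 cells with 2878.5 and 3001 genes at P1. The summed level of 7 epithelial markers was also 1031 CPM in the female at E18.5, with 4 of them at 0, and 25.9 CPM in the male, with 5 at 0, against 121 and 100.3 CPM at P1, with none at 0. The part of these differences in the result was not tested.

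The same comparison moved the whole transcriptome. It called 966 of 15670 genes (6.16%), 956 of them higher at P1, and the median log2 difference over all genes was 1.35. Relative to that median, Wnt4 was higher by 5.91 and Rspo2 by 6.68 on the log2 scale. Leaving out any mouse of P1, P7, P21 or hyperoxia ended both calls, with adjusted p of 0.0578 to 0.184, as did fitting only the 4 mice compared. The E18.5 cells that were many, the fibroblast precursors, held 14.8 and 13.0 CPM of Rspo2 and 0.417 and 0.856 CPM of Wnt4, so at that age Rspo2 was present in a subtype that the class leaves out.

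Other members in alveolar fibroblasts did not pass. Wnt2 held 362 and 526 CPM at E18.5, 352 and 544 CPM at P1, 526 and 541 CPM at P7, and 248 and 373 CPM at P21. P1 overlapped both E18.5 and P7, and both mice of P21 lay below both of P7 (log2 difference -0.49, SE 0.47, edgeR adjusted p = 0.892). Rspo2 held 55.5 and 61.5 CPM at P7 and 2.61 and 0.280 CPM at P21. That is a log2 difference of -5.23 (SE 1.49, unadjusted p = 0.00800, edgeR adjusted p = 0.555), and the cells with a read went from 48 of 210 and 28 of 138 to 9 of 176 and 0 of 70, the last of which allows a share of up to 4.29%. Wnt5a held 123 and 111 CPM at P7 against 53.6 and 35.4 CPM at P21. From E18.5 to P1, where Wnt5a went from 5.44 and 188 CPM to 108 and 108 CPM, leaving out the male of E18.5 gave it an edgeR adjusted p of 0.00611. That fit keeps 1 mouse of E18.5, at 5.44 CPM, which is assumed to vary like the other groups. DESeq2 called Wnt4, Wnt11 and Rspo2 in the step from E18.5 to P1, where it called 23.2% of all genes, and Rspo2 from P7 to P21, where it called 6.83%. By edgeR, from P1 to P7 0% of genes were called in this class, and from P7 to P21 0.0702%.

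**Figure D3:**
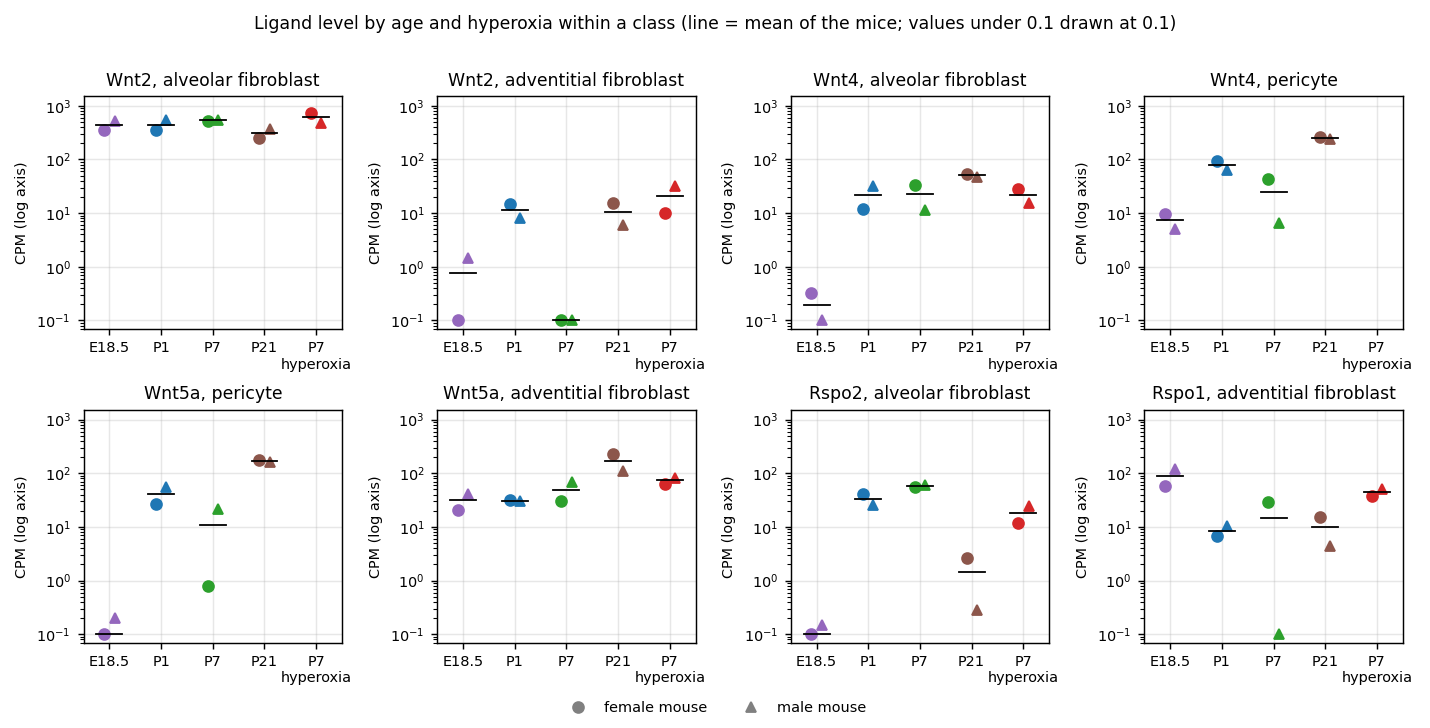
Level (CPM, log axis) by group for 8 pairs of ligand and class. Circles are female and triangles male mice, the line is the mean of both, and values under 0.1 are drawn at 0.1; pericytes under hyperoxia are missing because neither mouse had 10 of them. Wnt2 in alveolar fibroblasts stays between 248 and 745 CPM, whereas Wnt4 and Wnt5a in pericytes are highest at P21.

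In pericytes, both Wnt4 and Wnt5a were highest at P21. The Wnt4 level was 9.82 and 5.15 CPM at E18.5, 93.0 and 62.6 CPM at P1, 42.7 and 6.63 CPM at P7, and 262 and 236 CPM at P21. The ages E18.5 and P1 did not overlap, nor did P7 and P21, where the log2 difference was 3.75 (SE 1.07, unadjusted p = 0.00430, edgeR adjusted p = 0.783). Cells with a Wnt4 read were 2 of 25 and 4 of 30 at P7, and 32 of 69 and 33 of 72 at P21 (46.4% and 45.8%). At P21, pericytes held 49.8% and 77.8% of all Wnt4 reads of the mouse in 70 of 524 and 75 of 311 cells, proliferating pericytes included.

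Wnt5a in pericytes ran beside it. The level was 0 and 0.198 CPM at E18.5, 26.4 and 54.9 CPM at P1, 0.797 and 21.3 CPM at P7, and 174 and 165 CPM at P21. From P7 to P21 the log2 difference was 5.19 (SE 1.70, unadjusted p = 0.00979, edgeR adjusted p = 0.898). From E18.5, where both mice together held 2 reads, to P1 the summed level was 478 times as high (counting interval 132 to 3952), with an edgeR adjusted p of 0.304. Without a filter on low counts, this p was 0.00762. Wnt11 held 0 reads at E18.5, and 30.1 and 59.8 CPM at P1, which is at least 352-fold higher against a floor of 3 reads over both mice (edgeR adjusted p = 0.645).

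Markers of vascular smooth muscle moved in pericytes as well. The summed level of 6 such markers was 5049 and 2343 CPM at P7, with 2 and 3 of them at 0, and 303 and 409 CPM at P21, with 2 and 1 at 0, while that of 6 pericyte markers stayed at 6150 and 7505 CPM against 8227 and 8152 CPM with none at 0. Endothelial markers, 6 in all, summed to 0.149 and 7.78 CPM at P7 and 17.3 and 35.6 CPM at P21. Their part in the ligand values was not tested. In pericytes, 0.042% of genes were called from E18.5 to P1, 0% from P1 to P7 and 0.0504% from P7 to P21, and 0 members (DESeq2 called Wnt4, Wnt5a and Wnt11 in the first step, with 5.61% of all genes, and Wnt4 and Wnt5a in the last, with 3.74%).

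In adventitial fibroblasts, Wnt2 was far under its level in alveolar fibroblasts and was not detected at P7. It held 0.0811 and 1.43 CPM at E18.5, 14.8 and 8.01 CPM at P1, 0 and 0 CPM at P7, and 15.2 and 5.88 CPM at P21. At P7 there were 0 reads in 106 cells, and 0 of 50 and 0 of 54 thinned cells, so that shares up to 6% and 5.56% remain possible. The summed level was at least 485-fold higher at P1 and at least 472-fold higher at P21 than at P7, against a floor of 3 reads over the group (edgeR unadjusted p = 0.000836 and 0.000783, adjusted p = 0.829 and 0.133). Leaving out the female of E18.5 gave an adjusted p of 0.0468 for the step to P21. Markers of alveolar fibroblasts, 5 in all, summed to 1133 and 888 CPM in this class at P7, against 954 and 1448 CPM at P1 and 3516 and 4856 CPM at P21. The sums at P7 overlapped those at P1 and lay below those at P21. Their part in the Wnt2 values was not tested.

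Wnt5a in the same class was 30.5 and 69.2 CPM at P7 and 226 and 109 CPM at P21 (log2 difference 2.00, SE 0.55, unadjusted p = 0.00440, edgeR adjusted p = 0.272). Rspo1 was 58.7 and 122 CPM at E18.5, 6.72 and 10.4 CPM at P1, 29.3 and 0.0162 CPM at P7, and 15.1 and 4.48 CPM at P21. The E18.5 mice lay above all others in normal air, and the step to P1 had a log2 difference of -3.44 (SE 1.75, edgeR adjusted p = 0.572). Mesothelial markers, 5 genes of the lung surface lining, varied between mice of this class. They summed to 2.51 and 0.147 CPM at E18.5, 248 and 1.58 CPM at P1, and 250 and 0.0810 CPM at P7. The mouse with the higher Rspo1 level had the higher mesothelial sum at P7 but the lower at E18.5 and P1. By subtype, Upk1b of these markers was highest in alveolar fibroblasts (803 CPM). The part of the markers in the Rspo1 values was not tested. Rspo3 held 8.71 and 0.993 CPM at E18.5, 25.3 and 5.33 CPM at P1, 19.6 and 28.3 CPM at P7, and 14.7 and 10.0 CPM at P21. P7 did not overlap E18.5 or P21, and P1 overlapped each of the others. In this class 0.17%, 0% and 0.124% of genes were called in the 3 steps, and 0 members. DESeq2 called Wnt2 in each of the 3 steps, Wnt4 in the first and Wnt5a in the last, beside 5.09%, 2.15% and 5.57% of all genes.

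In airway smooth muscle and myofibroblasts, Wnt5a was at 247 CPM or above in every mouse measured, whereas in vascular smooth muscle it was at 26.5 CPM or below. Airway smooth muscle held 501 and 673 CPM at P1, 1087 and 736 CPM at P7, and 778 and 488 CPM at P21. Myofibroblasts held 247 and 354 CPM at P1 and 608 and 422 CPM at P7 (log2 difference 0.77, SE 0.40, edgeR adjusted p = 0.646). Wnt11 in myofibroblasts was 17.4 and 37.9 CPM at P1 and 106 and 47.2 CPM at P7 (log2 difference 1.40, SE 0.66, edgeR adjusted p = 0.638). Leaving out the male of P1, the higher of both, gave a log2 difference of 2.42 and an adjusted p of 0.0140; the 1 mouse left at P1 is then assumed to vary like the other groups. Wnt4 in vascular smooth muscle was 0.264 and 0.148 CPM at P7 and 56.7 and 15.6 CPM at P21 (log2 difference 7.71, SE 3.62, edgeR adjusted p = 0.695), from 1 of 54 and 5 of 51 thinned cells. In airway smooth muscle 0% and 1.13% of genes were called in the steps from P1 to P7 and from P7 to P21, in vascular smooth muscle 0% and 0.0886%, and in myofibroblasts, which had too few cells at P21, 0%. None was a member by edgeR, whereas DESeq2 called Wnt4 in vascular smooth muscle at P21, beside 6.78% of all genes, and Wnt2 and Wnt4 in myofibroblasts at P7, beside 5.15%. Wnt2 in myofibroblasts, at 56.7 and 0 CPM at P1 and 0.295 and 0.00469 CPM at P7, had an edgeR adjusted p of 0.622. Without the male of P1, the mouse at 0 CPM, it was 3.32e-06, again with 1 mouse left at P1, so that 1 library decides this value.

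The P7 mice kept in hyperoxia were set against those of the same age in normal air. Wnt2 in alveolar fibroblasts held 526 and 541 CPM in normal air and 745 and 479 CPM in hyperoxia. Wnt5a in airway smooth muscle held 1087 and 736 CPM against 813 and 1018 CPM, and in myofibroblasts 608 and 422 CPM against 334 and 505 CPM. Wnt11 in myofibroblasts held 106 and 47.2 CPM against 109 and 105 CPM. The groups overlapped in each of these 4 pairs. Pericytes were too few under hyperoxia, with 5 and 3 cells.

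Wnt2 outside its main source was the member with the lowest p under hyperoxia. In adventitial fibroblasts it was 0 and 0 CPM in normal air and 9.95 and 32.2 CPM in hyperoxia, which is at least 977-fold higher against a floor of 3 reads over the group (unadjusted p = 0.000675, edgeR adjusted p = 0.347). In myofibroblasts it was 0.295 and 0.00469 CPM in normal air and 28.8 and 14.6 CPM in hyperoxia (log2 difference 10.22, SE 3.02, unadjusted p = 0.0127, edgeR adjusted p = 0.650). The groups did not overlap in either class. Cells with a read were 8 of 107 and 23 of 116 in hyperoxic adventitial fibroblasts, and 8 of 58 and 4 of 45 in hyperoxic myofibroblasts. Leaving out either P1 mouse brought the myofibroblast value past the threshold, with adjusted p of 0.0194 and 1.72e-06. At P1 in normal air, the female's myofibroblasts had held 56.7 CPM, above both hyperoxia mice.

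Sums of markers of other cells were set beside these values. In hyperoxic adventitial fibroblasts, endothelial markers summed to 26.1 and 68.2 CPM against 0.148 and 0.275 CPM in normal air, and mesothelial markers to 685 and 768 CPM, with none at 0, against 250 and 0.0810 CPM. Markers of alveolar fibroblasts, the main Wnt2 source, summed to 1443 and 1160 CPM against 1133 and 888 CPM in adventitial fibroblasts. In myofibroblasts they summed to 13.0 and 44.7 CPM against 12.1 and 13.9 CPM, and there the groups overlapped. The 2 plates of the female and the 2 plates of the male in hyperoxia each held Wnt2 in adventitial fibroblasts, at 11.7 and 7.56 CPM and at 38.1 and 21.3 CPM. The part of markers and depth in the result was not tested.

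**Figure D4:**
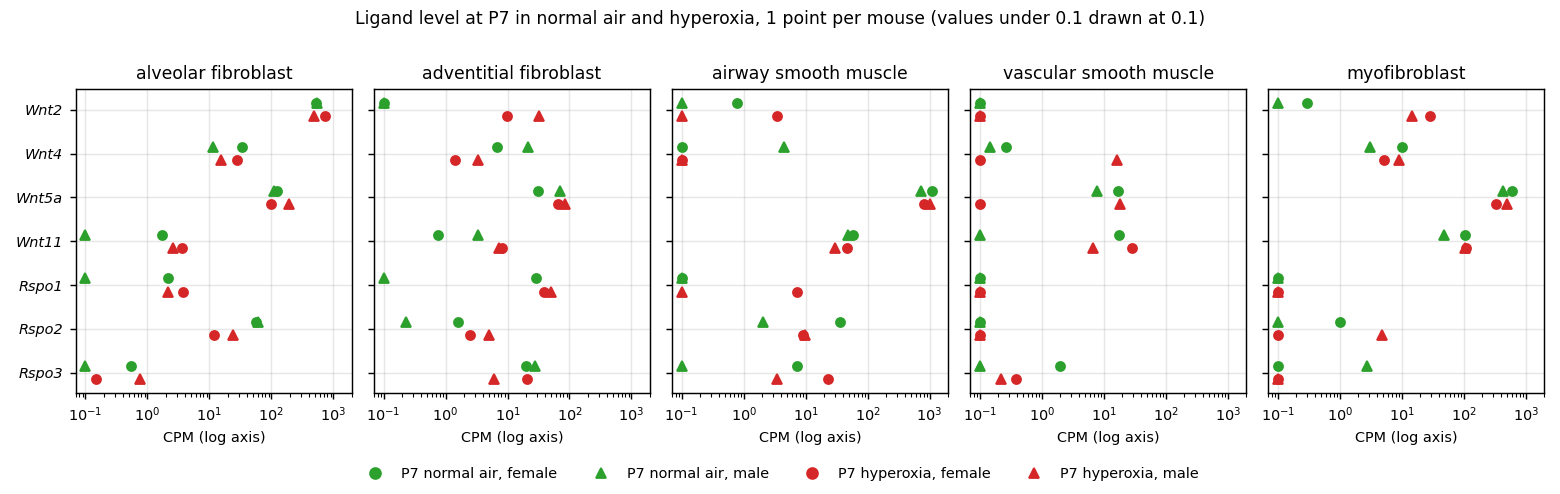
Level of each ligand (CPM, log axis) at P7 in 5 classes, in normal air (green) and hyperoxia (red), with 1 circle for the female and 1 triangle for the male. Values under 0.1 are drawn at 0.1, and each row should be read within its gene; Wnt2 in adventitial fibroblasts and myofibroblasts and Rspo2 in alveolar fibroblasts lie apart, as do 36.1% to 46.7% of all genes in these classes.

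Among the R-spondins, Rspo2 in alveolar fibroblasts was 55.5 and 61.5 CPM in normal air and 12.1 and 24.2 CPM in hyperoxia, with no overlap (log2 difference -1.82, SE 1.26, edgeR adjusted p = 1). Rspo1 in adventitial fibroblasts was 29.3 and 0.0162 CPM against 38.5 and 50.4 CPM, beside the mesothelial sums given above. Of 29 member and class pairs tested for hyperoxia, 11 did not overlap between the groups. Over all genes 41.8% of such pairs did not overlap, so the members' share was near the background. By class it was 43.4% of genes in alveolar fibroblasts, 45.4% in adventitial fibroblasts, 36.2% in airway smooth muscle, 36.1% in vascular smooth muscle and 46.7% in myofibroblasts. By edgeR 0 passed and 2 had an unadjusted p under 0.05, both of them Wnt2. DESeq2 called these 2, beside 2.53% of all genes in adventitial fibroblasts and 2.81% in myofibroblasts. Over all genes 0% were called by edgeR in each of the 5 classes, so the test had no call to give, while 319 to 1224 genes a class had an unadjusted p under 0.05 and DESeq2 called 130 to 387.

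Whether the effect of age or hyperoxia differed between classes was tested for each member in a fit over all classes with enough cells, with the mouse as a block. Of 28 tests, 0 passed after adjustment over all genes (edgeR) and 9 had an unadjusted p under 0.05, while DESeq2 called 6, all of them for age. Over all genes, an unadjusted edgeR p under 0.05 was seen for 1024 of 13894 from E18.5 to P1 and 972 of 15656 from P1 to P7. It was seen for 1092 of 15616 from P7 to P21 and 1225 of 16008 for hyperoxia. DESeq2 called 6.97%, 5.52% and 6.13% of all genes in the 3 steps of age and 5.45% for hyperoxia. The lowest p was for Wnt2 from P7 to P21 (p = 0.00224, edgeR adjusted p = 0.226), and for hyperoxia it was again Wnt2 (p = 0.0121, edgeR adjusted p = 0.448). By edgeR, 0% of all genes passed for the step from E18.5 to P1, 0.172% from P1 to P7, 0.199% from P7 to P21 and 0.106% for hyperoxia. A different course of a ligand in one class than in another was therefore not shown by the main test.

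The rest of the pathway was read from 6 lists with 79 genes in the table. In 19 comparisons, 9 calls were higher and 2 lower among 1155 tests, in 2 comparisons only by edgeR. Over all genes, edgeR called from 0% to 6.16% in a comparison. In the step from E18.5 to P1 in alveolar fibroblasts, with its general shift, 6.16% of all genes passed, 956 of 966 of them higher at P1. Of the pathway genes, 8 of 67 passed there and all were higher at P1. They were the ligand Wnt5b, which held 0 CPM in both mice at E18.5 and 18.9 and 20.2 CPM at P1, and the glypican Gpc3, a cell-surface binder of Wnt proteins, at 466 and 411 CPM against 1356 and 1609 CPM. The secreted antagonists Dkk3 (165 and 70.5 against 563.6 and 553 CPM) and Sfrp1 (0 and 0.147 against 43.1 and 36.5 CPM) were among them, as were the Dkk receptor Kremen1, the transducers Vangl1 and Dvl1 and the feedback gene Nkd2. Gpc3 and Dkk3, whose E18.5 levels were well above 0, had log2 differences of 1.72 (SE 0.33) and 2.33 (SE 0.43), of which 1.35 is the median of all genes.

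In airway smooth muscle from P7 to P21, the antagonists Sfrp2 and Sfrp4, which bind Wnt proteins, fell and Myc, a target of β-catenin signalling among other inputs, rose. They were the 2 lower calls and the 1 higher call among 62 tests, beside 1.13% of all genes. Sfrp2 held 78.1 and 91.1 CPM at P7 and 0.0554 and 0 CPM at P21 (log2 difference -11.40, SE 1.19, edgeR adjusted p = 0.00480). Sfrp4 held 63.9 and 26.1 CPM at P7 and 0.0185 and 0 CPM at P21 (edgeR adjusted p = 0.0381). Myc held 104.5 and 57.3 CPM at P7 and 1494 and 723 CPM at P21 (log2 difference 4.12, SE 0.64, edgeR adjusted p = 0.0188). In each of these the ages did not overlap, and Wnt5a in the same cells did.

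By subtype, receptors for the R-spondins lay partly in other cells than the R-spondins. Lgr6 was highest in early airway smooth muscle (314 CPM, range 189 to 422 over 6 mice) and in the myofibroblast and smooth muscle precursors (292 CPM over 2 mice), where Wnt5a was also high. Lgr5 was highest in airway smooth muscle of P21 (93.0 CPM over 2 mice) and next in early adventitial fibroblasts (64.3 CPM, range 11.2 to 166 over 8 mice), and Lgr4 reached 26.8 CPM in its highest subtype. The carrier Wls, needed for the release of Wnt proteins, was 224 CPM in pericytes (range 81.5 to 314 over 8 mice) and 313 CPM in the striated muscle cells of 1 mouse. The antagonist Wif1 and the response genes Axin2 and Nkd1 were highest in the myofibroblast and smooth muscle precursors of E18.5, at 447, 82.8 and 400 CPM. Among the 14 other Wnt and R-spondin ligands in the table, Rspo4 reached 62.2 CPM, Wnt9a 58.4 CPM and Wnt5b 48.1 CPM in their highest subtypes.

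The genes whose pattern across the 64 libraries was most like a member's were found among 12290 genes by Pearson's r on log2(CPM + 1). For Wnt2 they were Cass4 (0.90), Phex (0.88) and Ablim3 (0.86), and no other member had a gene so close. For Wnt5a they were Adgrg2 (0.77), Tnfrsf19 (0.77) and Agt (0.76), and for Wnt11 Aplp1 (0.78), Ptpre (0.74) and Enc1 (0.73). Wnt4 was nearest to Dusp4 (0.70), Il34 (0.70) and Angpt1 (0.67). Rspo1 was nearest to Ripor3 (0.69), Ptger4 (0.65) and Dpep1 (0.65), Rspo2 to Adamts19 (0.74), Tnfaip8l3 (0.72) and Shisa2 (0.65), and Rspo3 to Serpinf1 (0.74), C1qtnf3 (0.72) and AW551984 (0.71). Serpinf1 is one of the adventitial markers used above.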

How the data were processed

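Single mesenchymal cells of mouse distal lung had been sequenced in plates with Tn5 transposase, per the labels' protocols. The authors deposited raw read counts per gene and cell, which are whole numbers and not normalized. STAR 2.5.2b, HTSeq 0.10 and build GRCh38, a human build, are named per the submitters' processing notes, and their roles are not given. No molecular identifiers are named, so counts are reads. Strand use in counting, filters on cells and the treatment of doublets were not given in the sources used here, and no doublet caller was run. Every one of the 5480 count columns matched 1 labelled cell, and 0 columns were left over.

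Counts were summed per mouse and class (at least 10 cells) and compared in R 4.3.3 by edgeR 4.0.16, using TMM scaling, filterByExpr, a two-sided quasi-likelihood test with terms for sex and group, all groups in the fit, and Benjamini-Hochberg adjustment. The mouse was the replicate, and whether mice came from separate litters is not given. Differences between classes were tested as class by group terms with the mouse as a block. The script recovered changes placed in simulated counts. Alternatives were DESeq2 1.42.0, library totals, no filter, at least 20 cells, no CD31 or CD45 sorted cells (69 and 2), limma 3.58.1 on log2(mean CPM + 1), fewer mice and no block. Exon lengths came from a GENCODE mouse annotation.

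The members, the pathway and marker lists and the tests were chosen with earlier results of these data known. All 7 members are named, the 3 genes most like each, and pathway genes past the threshold (at most 4 a list and comparison). Pairs of member and comparison described by their values were picked after the values had been seen. Promoters came from RefSeq.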

Additional observations from a re-analysis of the deposited data

How the results depend on the processing

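The number of members called with age, 2 in the main test, was 17 with DESeq2, 0 with at least 20 cells and 0 with only the 4 mice compared, and it ran from 0 to 3 when 1 mouse at a time was left out. For hyperoxia it was 0 in the main test, 2 with DESeq2, and 0 to 1 when 1 mouse was left out. For age effects that differ between classes it was 0 in the main test and 6 with DESeq2. Without the replicate block (no term for sex, the label that pairs mice across groups, or for the mouse), 2, 0, 0 and 0 members were called for age, hyperoxia and the differences between classes, as with it. With at least 20 cells, the step from E18.5 to P1 in alveolar fibroblasts, which held both main calls for age, could not be tested. The female of E18.5 had only 14 cells of that class. The share of early alveolar fibroblasts with a Wnt2 read was 66.5% at 50000 reads a cell.

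For 18 pairs of member and comparison described by their values, none of 141 values under other settings and none of 180 with 1 mouse left out changed direction. Of the former, 126 stayed on their side of the threshold, 13 passed it (12 with DESeq2) and 2 lost their call, both with only the 4 mice compared. The cause was not tested. Of the latter, 160 stayed, 4 passed it and 16 lost their call. By the mean of per-cell CPM, fibroblast precursors ranked first for Wnt2 and Rspo1, and male hyperoxic fibroblasts for Rspo3. Without the CD31 and CD45 sorted cells, fibroblast precursors ranked first for Rspo1, at 38.0 CPM against 37.4 CPM in early adventitial fibroblasts. The level of each member's highest subtype moved by less than 1 SD under both alternatives. Without thinning, the share of all cells with a read was 14.96% for Wnt11 in place of 11.6%, and 3.05% for Rspo3 in place of 2.13%, so depth bears on these shares.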
